A study of Mus musculus with 8 samples.

Results

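The members described here are 58 genes that serve amino acid supply and use. They are 37 aminoacyl-tRNA synthetases, taken by symbol, and 21 genes of the amino acid stress response. Those 21 comprise the transcription factor Atf4, stress genes placed downstream of it, and enzymes and transporters of serine, folate, asparagine, proline and amino acid uptake. The count files listed 24421 gene symbols in all, and every one of the 58 was found there. Members were taken by name rather than by any measured value, though with earlier results of these data known. All 58 passed the filter on low counts. By role they fall into 20 cytosolic synthetases, 17 mitochondrial synthetases, 4 stress factors and effectors, 8 serine and one-carbon enzymes, 3 asparagine and proline enzymes and 6 amino acid transporters. The compartment of a synthetase was read from its symbol alone, so an enzyme active in both compartments is not set apart.

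RNA-seq was run on C57BL/6 mouse bone marrow cells made leukemic by MLL-AF9, a fusion oncogene of acute leukemia, with 2 KO libraries and 2 WT libraries. KO cells (Ikzf2Δ/Δ) lacked Ikzf2, the gene of Helios, an Ikaros-type DNA-binding protein with zinc fingers; WT cells came from mice with the floxed Ikzf2f/f gene. Cells of both genotypes carried MLL-AF9, had been frozen and thawed, and were sorted for high c-KIT, the stem cell factor receptor. The labels used here name neither what deleted the floxed gene nor whether the libraries of a genotype came from separate mice, so p-values measure a spread between libraries that may in part be technical. The comparison asks which genes change with loss of Ikzf2.

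Aminoacyl-tRNA synthetases join each amino acid to its tRNA, and most amino acids have 1 enzyme for the cytosol and another, encoded by a separate nuclear gene, for mitochondria. When amino acids run short or the endoplasmic reticulum is under stress, kinases phosphorylate the translation factor eIF2, which slows most translation and favours that of ATF4. ATF4 then activates genes for amino acid synthesis and uptake, many cytosolic synthetases, and further stress factors such as CHOP, TRIB3 and CHAC1.

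Gene counts came to 16006081 and 18017545 in KO 1 and KO 2 and to 19286090 and 18711837 in WT 1 and WT 2. Levels are given in CPM, gene counts scaled to library size with TMM factors, so that 3 counts equal 0.150 to 0.186 CPM in a library. CPM is not divided by gene length, so levels are compared between libraries and not between genes. Ikzf2 stood at 10.9 and 26.5 CPM in the KO libraries, against 283 and 271 CPM in the WT libraries. KO 1 stood apart from the other 3 libraries in its sex-linked genes, with Xist at 833 CPM there and at 0.352 CPM in KO 2, 0.600 CPM in WT 1 and 0.477 CPM in WT 2. The Y-linked Ddx3y had 0.0619 CPM in KO 1 and 70.1 CPM in KO 2, so the KO libraries hold cells of different animals. For WT, at 110 and 102 CPM, this does not tell. By these genes KO 1 is female, while KO 2, WT 1 and WT 2 are male. In differences of KO 1 from WT, sex and genotype thus cannot be told apart. All 10 progenitor markers were detected, with 4 fold changes of KO over WT above 0, 6 below and a median of -0.07 on the log2 scale. Both KO libraries lay above both WT libraries in 2 of them and below in 2, beside 18.1% and 19.1% of all genes tested. Kit, the gene of the sorted receptor, had 236 and 376 CPM in KO against 216 and 330 CPM in WT. The list also holds Mpo, the myeloperoxidase of granules, which had 7070 and 4310 CPM in KO, against 286 and 343 CPM in WT, and which DESeq2 called (adjusted p = 1.54e-30).

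Across all 12623 genes tested by edgeR's quasi-likelihood test, 0 (0%) passed a Benjamini-Hochberg adjusted p of 0.05 and 968 (7.67%) had an unadjusted p under 0.05. DESeq2 called 352 of 13422 genes (2.62%), of which 143 (1.07%) were lower in KO, and voom with limma called 0, with 937 at an unadjusted p under 0.05. Among the 58 members edgeR called 0, with 5 at an unadjusted p under 0.05, voom called 0, also with 5, and DESeq2 called 1, the serine enzyme Psat1, which was lower in KO. The lowest adjusted p of a member by edgeR was 0.444. Fold changes lay below 0 in 40 of the 58 members, beside 6380 of the 12623 genes tested (50.5%), and their median was -0.23 on the log2 scale, beside 0.00 over all genes. In 30 members both KO libraries lay below both WT libraries, which was so for 19.1% of all genes tested, and in 5 members both lay above, beside 18.1% of all genes. The members as a group were thus more often low than high in KO, by amounts that no test of single genes apart from that of Psat1 separated from the spread between libraries. In a mixed sample such as sorted marrow, fewer cells of a type and less RNA per cell cannot be told apart.

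**Figure D1:**
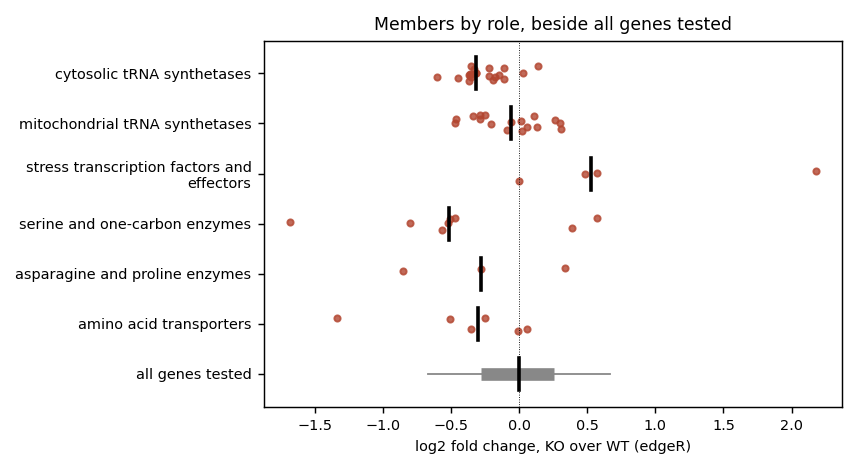
Log2 fold change of KO over WT (horizontal axis, edgeR) of each of the 58 members, 1 point a gene, by role, with the median of a role as a black bar. The grey bars for all 12623 genes tested span the 25th to 75th (thick) and 10th to 90th (thin) percentiles; the cytosolic synthetases have a median of -0.32 and the stress factors and effectors one of 0.53, beside 0.00 for all genes.

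Psat1 had the smallest p of the 58 members. PSAT1, phosphoserine aminotransferase, catalyses the middle step of serine synthesis from the glycolytic intermediate 3-phosphoglycerate, after PHGDH and before PSPH. The gene lies on chromosome 19 from 15905123 to 15925059 (GRCm38.p6, the assembly that mm10 names). Its level was 52.6 and 86.8 CPM in the KO libraries, against 196 and 250 CPM in the WT libraries. Both KO libraries were thus far below both WT libraries, with no overlap. Psat1 fell by DESeq2 (adjusted p = 0.000947), with a log2 fold change of -1.68 by edgeR (SE 0.32, n = 2 per group) or a level 3.20-fold lower, while its edgeR adjusted p was 0.444. With a library left out, DESeq2 lost the call without WT 2 (adjusted p = 0.0999) and kept it without WT 1 (0.0289), KO 1 (0.0112) and KO 2 (7.68e-07).

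The enzymes on either side of Psat1 did not show the same pattern. Phgdh, the first enzyme of the pathway, had 9.59 and 8.39 CPM in KO, against 3.75 and 8.33 CPM in WT. Psph, the phosphatase of the last step, had 35.8 and 37.2 CPM in KO, against 17.5 and 38.1 CPM in WT. For both genes WT 1 alone was low and the other 3 libraries lay close together. Their log2 fold changes were 0.57 (SE 0.54) and 0.39 (SE 0.41), with edgeR adjusted p-values of 0.899 and 0.908. A ratio of counts within a library needs no scaling: there were 5.49 and 10.3 Psat1 reads per Phgdh read in KO, against 52.2 and 30.1 in WT. Per Psph read there were 1.47 and 2.33 Psat1 reads in KO, against 11.2 and 6.56 in WT. These ratios were computed after the values had been seen, and they show an unequal change without telling which gene moved.

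The 5 folate enzymes that carry the carbon unit of serine each had both KO libraries below both WT libraries, beside 19.1% of all genes tested. Over all 8 serine and one-carbon enzymes, 6 were lower in both KO libraries, 1 was higher in both and 1 overlapped. Shmt2, the mitochondrial enzyme that splits serine into glycine and a folate-bound carbon unit, had 134 and 130 CPM in KO, against 253 and 206 CPM in WT. Its log2 fold change was -0.80 (SE 0.21), with an adjusted p of 0.456 by edgeR and 0.0837 by DESeq2, so it passed neither test. Mthfd1l, which releases formate from the mitochondrial folate cycle, had 103 and 124 CPM in KO, against 181 and 156 CPM in WT (log2 fold change -0.57, SE 0.21, edgeR adjusted p = 0.616). Mthfd2, its dehydrogenase and cyclohydrolase neighbour in mitochondria, had 24.1 and 36.2 CPM in KO, against 42.9 and 43.0 CPM in WT (log2 fold change -0.51, SE 0.28).

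The cytosolic enzymes of the same cycle had changes of like size. Shmt1, the cytosolic counterpart of Shmt2, had 50.4 and 60.6 CPM in KO, against 82.5 and 71.7 CPM in WT, a log2 fold change of -0.47 (SE 0.21). Mthfd1, the trifunctional cytosolic enzyme, had 56.3 and 74.2 CPM in KO, against 104 and 82.9 CPM in WT, a log2 fold change of -0.52 (SE 0.24). Neither passed a test, with edgeR adjusted p-values of 0.711 and 0.724. The count ratio of Shmt2 to Shmt1 was 2.65 and 2.15 in KO, against 3.06 and 2.88 in WT, and that of Mthfd1l to Mthfd1 was 1.83 and 1.66 in KO, against 1.74 and 1.88 in WT. Taken as a list, 6 of the 8 serine and one-carbon enzymes had a fold change below 0, with a median of -0.51, and of -0.34 without KO 1. In sum the 8 genes had 465 and 557 CPM in KO, against 879 and 856 CPM in WT.

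**Figure D2:**
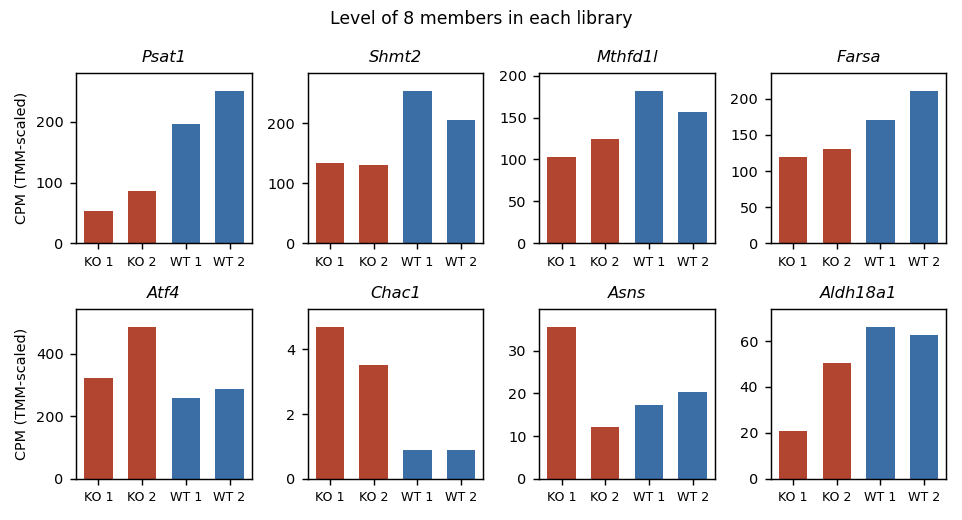
Level of 8 members in CPM (vertical axis, from 0) in the KO (red) and WT (blue) libraries, 1 bar a library. Psat1, Shmt2, Mthfd1l and Farsa are lower in both KO libraries, Atf4 and Chac1 higher in both, and Asns and Aldh18a1 stand apart in KO 1.

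The remaining folate and glycine genes, 15 tested of 16 listed, had a median log2 fold change of -0.13, with 10 of 15 below 0 and 7 lower in both KO libraries, beside 19.1% of all genes. Aldh1l1, the cytosolic enzyme that oxidises 10-formyltetrahydrofolate to carbon dioxide, had 4.08 and 0.881 CPM in KO, against 29.6 and 19.5 CPM in WT. It was the only gene of that list that DESeq2 called, and it fell (adjusted p = 0.000772), with a log2 fold change of -3.31 by edgeR (SE 0.78, edgeR adjusted p = 0.444). Without WT 1 the DESeq2 call was lost (adjusted p = 0.0757); it was kept without WT 2 (0.00162), KO 1 (4.49e-09) and KO 2 (0.00189). Slc19a1, the reduced folate carrier, had 27.6 and 24 CPM in KO, against 46.9 and 40.6 CPM in WT, and Mthfd2l, a close relative of Mthfd2, had 2.04 and 2.76 CPM in KO, against 6.25 and 5.78 CPM in WT. Those last 2 genes passed no test after adjustment (edgeR adjusted p = 0.523 and 0.645) and were chosen after their values had been seen.

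The 4 stress factors and effectors had a median log2 fold change above 0, at 0.53. Atf4 (chromosome 15, 80255184 to 80257545) had 322 and 486 CPM in KO, against 258 and 286 CPM in WT. Both KO libraries were above both WT libraries, KO 1 by a small margin and KO 2 by a large one. The log2 fold change was 0.57 (SE 0.27), which passed neither edgeR (adjusted p = 0.738) nor DESeq2 (adjusted p = 0.627), and it was 0.24 without KO 2. ATF4 is controlled chiefly at translation, which RNA levels do not measure.

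Chac1, a gamma-glutamylcyclotransferase that breaks down glutathione and is a sensitive marker of ATF4 activity, had the highest fold change of the members. It lies on chromosome 2 from 119351242 to 119354326. Its counts were 76 and 60 in KO, against 18 and 17 in WT, or 4.70 and 3.52 CPM against 0.900 and 0.902 CPM. Both KO libraries stood well above both WT libraries, at a low level in all 4. The log2 fold change was 2.18 (SE 0.60), a 4.54-fold higher level, with an adjusted p of 0.463 by edgeR and 0.0786 by DESeq2, so Chac1 passed neither test.

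Ddit3, which encodes the C/EBP family factor CHOP, had 15.6 and 24 CPM in KO, against 11 and 17.3 CPM in WT, and the groups overlapped (log2 fold change 0.48, SE 0.40). Trib3, a pseudokinase gene induced by ATF4 and CHOP, had 12 and 17 counts in KO, against 23 and 11 in WT, with a log2 fold change of 0.00 (SE 0.75). Of the 4 stress factors and effectors, then, 2 were higher in both KO libraries, beside 18.1% of all genes, and 2 overlapped. None passed a test.

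**Figure D3:**
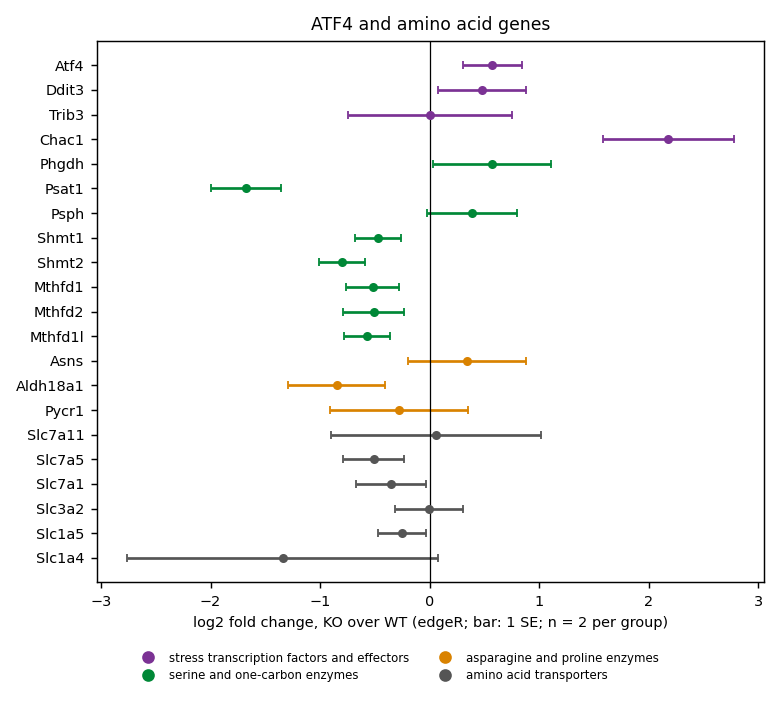
Log2 fold change of KO over WT (horizontal axis, edgeR) of the 21 ATF4 and amino acid genes, coloured by role, with 1 SE on each side of a point and n = 2 per group. Psat1 lies lowest at -1.68 and Chac1 highest at 2.18, and the 5 folate enzymes Shmt1, Shmt2, Mthfd1, Mthfd2 and Mthfd1l lie between -0.80 and -0.47.

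ATF4 binds a composite site, the C/EBP-ATF response element, whose core reads TGATGNAA. Promoter windows of 300 bases, from 250 before to 50 from the annotated start on, were taken from RefSeq (GRCm38.p6) and matched 47 of the 58 members; Cars, Hars, Lars, Nars, Rars, Vars, Wars, Slc7a5 and Slc1a5 were among those without an entry. Searched on both strands, the core stood in 11 of the 47 members (23.4%), beside 4.51% of all 27025 genes with a promoter window of that length and 3.97% of all 32851 windows, since some genes have several. It was found in 5 of 13 cytosolic synthetases, 0 of 15 mitochondrial synthetases, 0 of 8 serine and one-carbon enzymes, 2 of 4 stress factors and effectors, 2 of 3 asparagine and proline enzymes and 2 of 4 transporters. Stretches of 30 bases around matches in 10 of the 11 are shown because the members that hold the core are those in which a direct response to ATF4 would be looked for first. Capitals mark the 8 bases of the core, read on the gene's strand, and a match whose capitals end in ATCA is the core on the opposite strand.
Gars, chr6:55037960-55037989 (+): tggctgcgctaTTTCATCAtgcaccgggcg
Iars, chr13:49682126-49682155 (+): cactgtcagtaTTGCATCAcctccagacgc
Tars, chr15:11399655-11399684 (-): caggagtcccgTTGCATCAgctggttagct
Yars, chr4:129189895-129189924 (+): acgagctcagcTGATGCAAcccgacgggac
Trib3, chr2:152344028-152344057 (-): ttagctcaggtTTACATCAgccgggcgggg
Chac1, chr2:119351038-119351067 (+): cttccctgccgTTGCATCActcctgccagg
Asns, chr6:7693214-7693243 (-): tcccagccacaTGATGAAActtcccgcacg
Pycr1, chr11:120643833-120643862 (-): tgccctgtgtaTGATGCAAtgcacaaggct
Slc7a11 first match, chr3:50443661-50443690 (-): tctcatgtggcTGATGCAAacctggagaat
Slc7a11 other match, chr3:50443642-50443671 (-): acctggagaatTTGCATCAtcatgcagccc
Slc1a4, chr11:20332699-20332728 (-): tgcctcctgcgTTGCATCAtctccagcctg

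The match in Chac1 begins 193 bases before the annotated start, and those in Slc1a4, Tars, Asns and Gars begin 4, 15, 23 and 30 bases before it. The 250 bases ahead of the starts of Chac1 and Psat1 are given in full, since these are the members with the highest and the lowest fold change. The Chac1 window held 1 TGATGNAA match, in capitals, while no capitals stand in the Psat1 window, which held neither TGATGNAA nor CACGTG nor GGGAA.
Chac1, chr2:119350992-119351241 (+): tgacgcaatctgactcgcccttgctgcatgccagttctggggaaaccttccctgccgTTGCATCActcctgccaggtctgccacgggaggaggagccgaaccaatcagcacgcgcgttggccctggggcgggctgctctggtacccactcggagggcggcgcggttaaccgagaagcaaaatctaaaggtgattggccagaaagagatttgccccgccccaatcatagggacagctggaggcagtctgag
Psat1, chr19:15925060-15925309 (-): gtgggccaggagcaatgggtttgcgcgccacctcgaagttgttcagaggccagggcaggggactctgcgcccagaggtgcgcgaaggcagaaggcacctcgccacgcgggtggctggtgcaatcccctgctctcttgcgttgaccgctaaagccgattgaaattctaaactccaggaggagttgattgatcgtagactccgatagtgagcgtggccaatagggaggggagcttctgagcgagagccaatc

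The 11 members with the core had a median log2 fold change of -0.11, from -1.34 in Slc1a4 to 2.18 in Chac1, with 4 lower in both KO libraries, 1 higher and 6 overlapping. The 36 matched members without it had a median of -0.29, from -1.68 to 0.57, with 19 lower, 4 higher and 13 overlapping. Over all genes tested 19.1% were lower and 18.1% higher in both KO libraries. A difference between members with and without the core was not tested. All 8 serine and one-carbon enzymes, Psat1 and Shmt2 among them, lacked the core in this window. The E-box CACGTG, a palindrome, stood in 12.8% of the 47 members and 8.09% of all genes with a window. It was found in 4 of 13 cytosolic synthetases, 1 of 15 mitochondrial synthetases and 1 of 19 ATF4 and amino acid genes. By direction it stood in 5 of 23 members lower in both KO libraries, 0 of 5 higher and 1 of 19 overlapping. These differences were not tested. The Ikaros family core GGGAA stood in 68.1% of the members and 65.5% of all such genes. These 3 motifs overlapped one another in 0 of the members' windows. A match is a run of letters in a window, and binding was not measured here.

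None of the 20 cytosolic synthetases passed a test, and most lay a little below 0. Of these genes 18 had a fold change below 0, with a median of -0.32 and a range of -0.60 to 0.14, beside 10th and 90th percentiles of -0.67 and 0.67 over all genes. In 16 of the 20 both KO libraries lay below both WT libraries, beside 19.1% of all genes, in 0 both lay above, beside 18.1%, and Cars, Dars, Iars and Vars overlapped. EdgeR had 1 and voom 1 at an unadjusted p under 0.05, and DESeq2 called 0, so these counts describe the list and are not a result for any gene in it. In sum they had 2340 and 2830 CPM in KO, against 3050 and 3090 CPM in WT. Without KO 1 the median was -0.17.

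Farsa, the alpha subunit of phenylalanyl-tRNA synthetase, had the lowest fold change of the cytosolic enzymes. It had 119 and 131 CPM in KO, against 171 and 210 CPM in WT, a log2 fold change of -0.60 (SE 0.22, edgeR adjusted p = 0.594). Farsb, the beta subunit of the same enzyme, had 56.3 and 52.4 CPM in KO, against 69.7 and 70.9 CPM in WT (log2 fold change -0.37, SE 0.19). Both subunits of the tetramer were thus lower in both KO libraries.

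Sars, which charges serine onto its tRNA, had 96.6 and 96.7 CPM in KO, against 124 and 125 CPM in WT, the closest agreement within both groups of any cytosolic synthetase (log2 fold change -0.36, SE 0.18). Kars, for lysine, had 166 and 157 CPM in KO, against 212 and 204 CPM in WT (log2 fold change -0.37, SE 0.20). Wars, for tryptophan, had 54.8 and 73.0 CPM in KO, against 89.5 and 85.1 CPM in WT (log2 fold change -0.45, SE 0.22). For these 3 genes no KO library reached a WT library, and the edgeR adjusted p-values lay between 0.747 and 0.770.

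Aars, Eprs, Hars, Lars, Mars and Yars, for alanine, glutamate and proline, histidine, leucine, methionine and tyrosine, had log2 fold changes between -0.36 and -0.32. Gars, Nars, Qars, Rars and Tars, for glycine, asparagine, glutamine, arginine and threonine, lay between -0.22 and -0.11. All 11 were lower in both KO libraries. In Mars that rested on KO 1, which had 63.6 CPM, while KO 2 had 101 CPM, close to the 102 and 104 CPM in WT. Margins were small in others too. Gars had 132 CPM in KO 1 against 133 CPM in WT 2, and Qars 191 CPM in KO 2 against 196 CPM in WT 1. Nars had 201 CPM in KO 2 against 206 CPM in WT 2, and Yars 60.9 against 63.9 CPM in the same libraries.

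The 4 that overlapped include the pair of highest mean CPM, Vars and Dars. Vars, for valine, had 358 and 562 CPM in KO, against 494 and 529 CPM in WT, so that the KO libraries lay on either side of the WT libraries. Dars, for aspartate, had 208 and 259 CPM in KO, against 254 and 249 CPM in WT, with KO 1 alone low. Cars, for cysteine, had 35.8 and 41.7 CPM in KO, against 36.1 and 34.2 CPM in WT, and Iars, for isoleucine, had 106 and 109 CPM in KO, against 101 and 109 CPM in WT. Their log2 fold changes were -0.15 (SE 0.29), -0.11 (SE 0.22), 0.14 (SE 0.22) and 0.03 (SE 0.18).

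**Figure D4:**
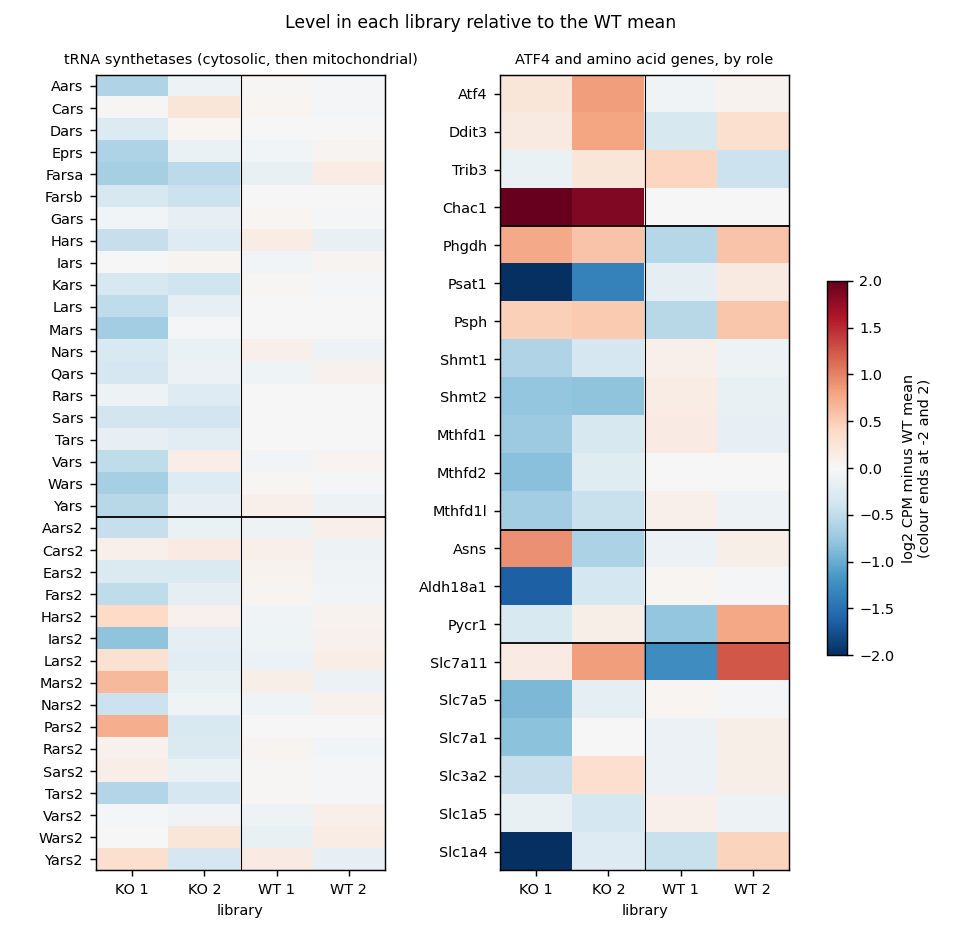
Log2 CPM of members minus their mean over the WT libraries (colour, blue lower and red higher, ending at -2 and 2) in the KO and WT libraries (columns), with lines between roles. Most cytosolic synthetases are blue in both KO libraries and deeper in KO 1, while the mitochondrial ones have no common colour.

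Fold changes of the mitochondrial synthetases lay on both sides of 0. Of 17 genes 8 had a fold change above 0 and 9 below, with a median of -0.06 and a range of -0.47 to 0.31. With 1 library left out at a time that median ran from -0.15 without KO 1 to -0.02 without KO 2, and without WT 2 it was -0.12. Both KO libraries were lower in 5 and higher in 2 of the 17, shares near those of all genes (19.1% and 18.1%), and overlapped with WT in 10, and none was called by edgeR (0 at an unadjusted p under 0.05), voom (0 likewise) or DESeq2. Against WT 1 and WT 2 the mitochondrial median difference in log2 CPM was 0.04 and -0.14 for KO 1. For KO 2 it was -0.11 and -0.16. The cytosolic list had -0.39 and -0.35 for KO 1 and -0.22 and -0.15 for KO 2. The lists thus lay closer for KO 2 than for KO 1. The difference between the cytosolic and mitochondrial lists was not tested.

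Tars2, the mitochondrial threonyl enzyme, had 49.0 and 57.9 CPM in KO, against 74.6 and 72.2 CPM in WT (log2 fold change -0.46, SE 0.20, edgeR adjusted p = 0.702). Iars2, for isoleucine, had 79.2 and 121 CPM in KO, against 130 and 147 CPM in WT (log2 fold change -0.47, SE 0.27). Aars2, Ears2 and Fars2 were the others lower in both KO libraries, at log2 fold changes of -0.29, -0.29 and -0.34. Hars2 and Cars2 were the pair higher in both. Hars2 had 47.5 and 38.2 CPM in KO, against 34.0 and 37.7 CPM in WT, and Cars2 had 43.1 and 45.1 CPM in KO, against 42.9 and 37.5 CPM in WT, margins that were small beside the spread within WT. Nars2, Rars2, Sars2, Vars2, Wars2 and Yars2 were among those that overlapped, at log2 fold changes between -0.25 and 0.11.

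Mars2 and Pars2, for methionine and proline, were high in KO 1 alone. Mars2 had 25.3 and 14.5 CPM in KO, against 17.4 and 14.8 CPM in WT. Pars2 had 21.2 and 10.3 CPM in KO, against 12.8 and 12.8 CPM in WT. KO 2 was the lowest of the 4 libraries for both, so their fold changes of 0.31 and 0.30 rest on 1 library.

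Lars2, the mitochondrial leucyl enzyme, took 0.372% and 0.242% of gene counts in KO, against 0.287% and 0.325% in WT. It had 59610 and 43535 counts in KO, against 55290 and 60819 in WT, or 3690 and 2560 CPM against 2770 and 3230 CPM. Its order over the libraries was KO 1, WT 2, WT 1, KO 2, the same as that of Rn45s, the ribosomal RNA precursor, at 13500 and 7260 CPM in KO against 9630 and 10700 CPM in WT. The count ratio of Lars2 to Rn45s was 0.274 and 0.352 in KO, against 0.287 and 0.301 in WT; a link between these genes was not tested. The log2 fold change of Lars2 was 0.06 (SE 0.28). Without Lars2 the share of gene counts in all members was 0.421% and 0.480% in KO, against 0.568% and 0.559% in WT, and with it 0.793% and 0.721% against 0.855% and 0.884%.

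Asns and Aldh18a1 differed widely between the KO libraries. Asns, asparagine synthetase and a classical ATF4 target, had 35.6 and 12.1 CPM in KO, against 17.3 and 20.4 CPM in WT. KO 1 was thus the highest and KO 2 the lowest library. Aldh18a1, which makes the first intermediate of proline synthesis from glutamate, had 20.7 and 50.6 CPM in KO, against 66.2 and 62.4 CPM in WT, so that both KO libraries were lower, KO 1 by far the more. Their count ratio, Asns to Aldh18a1, was 1.72 in KO 1 and 0.239 in KO 2, against 0.261 and 0.327 in WT. Pycr1, the reductase that completes proline in mitochondria, had 6.06 and 8.16 CPM in KO, against 4.35 and 12.9 CPM in WT, with the WT libraries on either side. The log2 fold changes were 0.34 (SE 0.54), -0.85 (SE 0.44) and -0.28 (SE 0.63), and none passed a test.

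Among the transporters, Slc7a5 and Slc3a2 encode the light and heavy chains of the LAT1 exchanger of large neutral amino acids. Slc7a5 had 66.2 and 107 CPM in KO, against 126 and 120 CPM in WT, lower in both KO libraries (log2 fold change -0.51, SE 0.28, edgeR adjusted p = 0.781). Slc3a2 had 91.1 and 159 CPM in KO, against 116 and 136 CPM in WT, with the KO libraries on either side of WT (log2 fold change -0.01, SE 0.31). The count ratio of light to heavy chain was 0.726 and 0.673 in KO, against 1.08 and 0.882 in WT, with no overlap; this ratio was chosen after the values had been seen.

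Slc1a5, the glutamine carrier ASCT2, had 217 and 187 CPM in KO, against 259 and 223 CPM in WT (log2 fold change -0.25, SE 0.22). Slc7a1, the cationic amino acid carrier, had 62.0 and 110 CPM in KO, against 101 and 118 CPM in WT (log2 fold change -0.35, SE 0.32). Slc1a5 was lower in both KO libraries and Slc7a1 in KO 1 alone. Slc7a11, the cystine-glutamate exchanger, had 2.04 and 3.29 CPM in KO, against 0.700 and 4.40 CPM in WT, and the WT libraries differed more than the groups did. Slc1a4, a carrier of alanine, serine and cysteine, had 0 and 12 counts in KO, against 12 and 23 in WT, with an SE larger than the fold change (log2 fold change -1.34, SE 1.42); a count of 0 in KO 1 allows up to 0.186 CPM.

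The libraries can also be read 1 pair at a time. KO 1 was the lowest of the 4 libraries for 30 of the 58 members, KO 2 for 14, WT 1 for 11 and WT 2 for 3. The median difference of the cytosolic synthetases in log2 CPM was -0.39 and -0.35 for KO 1 against WT 1 and WT 2, and -0.22 and -0.15 for KO 2. For the serine and one-carbon enzymes it was -0.82 and -0.58 for KO 1 and -0.46 and -0.25 for KO 2. All 4 pairs thus had the same sign for both lists, and the larger differences were those of KO 1, the library apart in its sex-linked genes. WT 2 differed from WT 1 by -0.02 for the cytosolic synthetases and by -0.10 for the serine and one-carbon enzymes, and KO 2 from KO 1 by 0.21 and 0.26. The transporters had no common sign over the pairs, at -0.53 and -0.90 for KO 1 and 0.16 and -0.21 for KO 2.

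**Figure D5:**
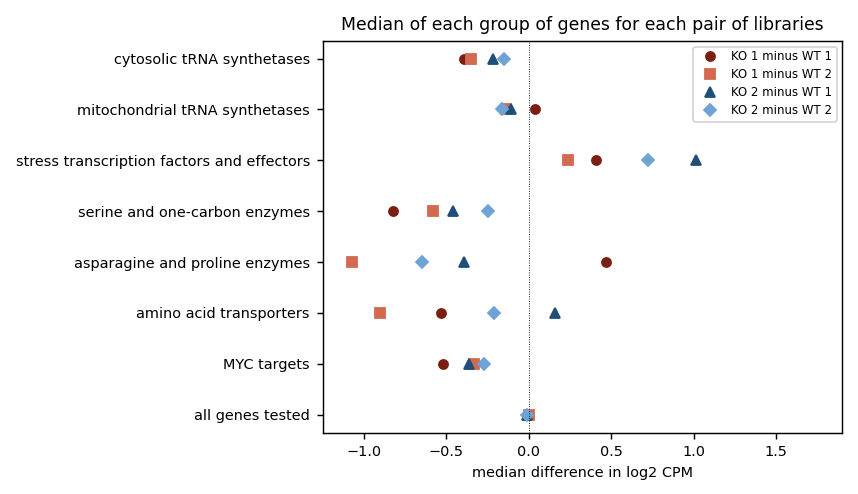
Median difference in log2 CPM (horizontal axis) of each role, of 12 MYC targets and of all genes tested, for each of the 4 pairs of a KO with a WT library. The cytosolic synthetases, the serine and one-carbon enzymes and the MYC targets lie below 0 in all 4 pairs, the stress factors and effectors lie above, and all genes lie between -0.01 and 0.00.

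Lists of neighbouring pathways were set beside the members. The kinases and regulators of eIF2 had 7 of 14 fold changes above 0 and a median of -0.03. Their members of highest CPM were Ppp1r15b, a constitutive subunit of the eIF2 phosphatase, at 362 and 289 CPM in KO against 225 and 183 CPM in WT (log2 fold change 0.67, SE 0.24, edgeR adjusted p = 0.594), and Eif2s1, the phosphorylated subunit itself, at 111 and 86.2 CPM in KO against 115 and 115 CPM in WT. Further genes known as ATF4 targets, 16 tested of 23 listed, had 10 fold changes above 0 and a median of 0.21, with 4 higher and 1 lower in both KO libraries, beside 18.1% and 19.1% of all genes. Slc38a2, the neutral amino acid carrier SNAT2, had 392 and 350 CPM in KO, against 182 and 285 CPM in WT (log2 fold change 0.67, SE 0.29), and Xpot, the tRNA export factor, had 99.0 and 87.0 CPM in KO, against 124 and 94.8 CPM in WT. Scaffold proteins and other tRNA charging genes had 6 of 9 fold changes below 0 and a median of -0.15; Aimp1, a scaffold of the multisynthetase complex, had 92.8 and 65.2 CPM in KO, against 81.2 and 75.8 CPM in WT, and Aarsd1, an editing enzyme for alanyl-tRNA, had 58.6 and 49.4 CPM against 57.9 and 48.7 CPM. None of the genes in these 3 lists was called by edgeR, voom or DESeq2; at an unadjusted p under 0.05 edgeR had 1, 3 and 0 of them in the order given, and voom 1, 2 and 0.

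Chaperones of the endoplasmic reticulum, whose stress also feeds into ATF4, had 7 of 12 fold changes above 0 and a median of 0.03, with 0 called by DESeq2, edgeR or voom and 1 at an unadjusted p under 0.05 by each of the last named. Calr, calreticulin, had 1850 and 1730 CPM in KO, against 2150 and 2620 CPM in WT, and Hspa5, the chaperone BiP, had 720 and 1810 CPM in KO, against 738 and 984 CPM in WT, with KO 2 alone high. Immediate early genes were also highest in KO 2, and WT 2 was above WT 1. The 11 summed to 2000 and 11800 CPM in KO, against 1320 and 4310 CPM in WT, and 0 of the 11 separated the groups. The median difference in log2 CPM was 2.36 for KO 2 against KO 1 and 1.51 for WT 2 against WT 1. Jun had 383 and 2830 CPM in KO, against 303 and 1000 CPM in WT, and Fos had 408 and 2100 CPM in KO, against 177 and 991 CPM in WT. Atf4 also had its highest level in KO 2. The part of handling or stress in that level was not tested.

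Marker genes of other cell types differed between the libraries as well. The 12 markers of mature neutrophils summed to 13500 and 20000 CPM in KO, against 1110 and 4390 CPM in WT, with 12 of 12 fold changes above 0, 9 higher in both KO libraries, beside 18.1% of all genes, and none at 0 in all libraries. DESeq2 called 4 of the 12, beside 2.62% of all genes in either direction, among them S100a8 (log2 fold change 3.17), Ngp (2.47) and Lcn2 (2.38). The 8 tested dendritic cell markers summed to 1980 and 544 CPM in KO, against 366 and 340 CPM in WT, with 6 of 8 fold changes above 0. DESeq2 called 3 of the 8, beside 2.62% of all genes. They were the antigen presentation genes Cd74 (6.40), H2-Aa (5.84) and H2-Eb1 (6.18), highest in KO 1, the library that was lowest for 30 members. Monocyte and macrophage markers had 4 of 7 fold changes above 0. Their sums had no order, at 2050 and 1820 CPM in KO against 2160 and 1190 CPM in WT. Yet DESeq2 called 3 of the 7 higher, beside 2.62% of all genes in either direction. These were F13a1, the A chain of coagulation factor XIII (3.27), Mpeg1, perforin-2 (1.47), and Csf1r, the M-CSF receptor (1.40). Of the mast cell and basophil markers 4 of 5 tested had a fold change above 0, with a median of 0.62. The exception was Gata2, a transcription factor of early progenitors and mast cells, which was lower and called by DESeq2. It had 14 and 49.3 CPM in KO, against 74.4 and 234 CPM in WT (-2.28). Each of these calls except that of F13a1 was lost in at least 1 fit that left out a library.

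Markers of further cell types passed no test. Itga2b, a platelet integrin subunit, had 2.85 and 21.3 CPM in KO, against 28.6 and 112 CPM in WT, while Vwf, from the same megakaryocyte list, had 12.4 and 17.8 CPM in KO, against 1.10 and 11.5 CPM in WT. Pecam1, an adhesion molecule of endothelial and blood cells and the only tested gene of its list, had 71.8 and 152 CPM in KO, against 236 and 257 CPM in WT. The T and NK cell gene Nkg7 had 94.2 and 133 CPM in KO, against 99.0 and 64.8 CPM in WT, with Klrb1c under 1 CPM in all 4 libraries. The B cell gene Cd79b had 33.8 and 24 CPM in KO, against 22.6 and 16.9 CPM in WT, and Cd79a under 1 CPM. Erythroid markers, with Klf1 and Alas2 the only ones tested, summed to at most 2.78 CPM in any library, and 7 of 12 were at 0 in all 4.

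Growth-related lists were examined in the same way. Of 12 MYC targets, a set that covers ribosome production and growth, 11 had a fold change below 0 and 10 were lower in both KO libraries, beside 19.1% of all genes, with a median of -0.34 and sums of 3030 and 3560 CPM in KO, against 4320 and 4070 CPM in WT. Ncl, nucleolin, had 1040 and 1090 CPM in KO, against 1320 and 1290 CPM in WT, and Ldha, lactate dehydrogenase A, had 763 and 746 CPM in KO, against 1030 and 910 CPM in WT. Proliferation genes summed to 2610 and 3580 CPM in KO, against 3110 and 2720 CPM in WT, with 9 of 11 fold changes above 0. Of the 11, 5 were higher in both KO libraries, beside 18.1% of all genes, and 0 were lower in both. Mki67 had 434 and 928 CPM in KO, against 522 and 624 CPM in WT, and Top2a had 390 and 692 CPM in KO, against 616 and 546 CPM in WT. The part of cell types and of growth state in the lower synthetase and serine enzyme levels was not tested.

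Overlapping genes limit a few values. The strand setting of the counting is not given in the sources used here, so reads from genes that share sequence cannot be told apart. Of the 58 members 11 overlap another protein-coding gene in the span of their annotation. The longest overlaps are those of Aars with Ddx19b over 3974 bases and of Farsb with Sgpp2 over 2332 bases. Among members, Hars overlaps Hars2 over 4 bases and Mars overlaps Ddit3 over 71 bases. Of that last pair the values of Ddit3 are the more exposed, since it has fewer counts.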

How the data were processed

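Each library has 1 deposited table of raw read counts by gene symbol, made by the authors. Per the submitters' processing notes MACS2, Picard, Bowtie2 2.2.5, HTSeq and STAR 2.3.0 were used, and the build was mm10; annotation and strand setting: not given in the sources used here. The last 5 rows of each table, which count reads given to no gene and hold 69.3% to 72.4% of all counts, entered neither library sizes nor tests. The chromatin accessibility samples were not analysed here.

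KO was compared with WT in R 4.3.3 by the quasi-likelihood F-test of edgeR 4.0.16 (filterByExpr, TMM scaling, robust moderation, no covariate), with Benjamini-Hochberg adjustment over all 12623 genes tested and a threshold of 0.05. The SE is the absolute log2 fold change over the root of F. Alternatives were voom (limma 3.58.1) and DESeq2 1.42.0 on the 16651 symbols that had any count, besides other scalings, no filter, a replicate block and leaving out each library. Log2 CPM used a prior count of 2. "Fell" is used only of genes past the adjusted threshold in the named test.

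Members, gene lists and the rule for named genes were chosen with earlier results of these data known. Named are all 21 ATF4 and amino acid genes; of each synthetase group the 5 per direction of smallest p and the 2 of highest mean CPM; and of each list its called genes (at most 3) or else its 2 of highest CPM. Other synthetases are given by range; a few items are not reported here. Replicates were not repeats of 1 library: their counts differed by a chi-square of 109 (KO) and 80.5 (WT) per degree of freedom.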

Additional observations from a re-analysis of the deposited data

How the results depend on the processing

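The number of genes called over all genes by edgeR was 4 with no filter, 11 with a replicate block and 0 to 156 with 1 library left out (50 without WT 1, 156 without WT 2, 0 without KO 1 and 0 without KO 2), while DESeq2 called 352; the cause was not tested. Members called by edgeR stayed at 0 under those settings, and DESeq2 called 1. The replicate numbers share no animal or batch in the labels, so the block is given only here; it called none of the members. With 1 library left out a genotype keeps a lone sample, which is then assumed to vary like the other group.

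The median of the cytosolic synthetases ran from -0.35 to -0.17 with 1 library left out, and that of the mitochondrial ones from -0.147 to -0.023; scaled by library totals alone the mitochondrial median was -0.12. The number of cytosolic synthetases lower in both KO libraries was 16, but 15 with RLE in place of TMM scaling and 17 with library totals alone. It was 15 with Rn45s left out. The median of the serine and one-carbon enzymes ran from -0.72 to -0.34 with 1 library left out. The DESeq2 calls of Psat1 and Aldh1l1 were each lost in 1 of 4 such fits, at log2 fold changes of -1.48 and -2.98. Of the called marker genes Mpo and F13a1 kept their DESeq2 calls in all 4. The calls were lost for S100a8 and Ngp without KO 1 (adjusted p = 0.591 and 0.683) and without KO 2 (0.564 and 0.776), for Lcn2 without KO 2 (0.174) and WT 1 (0.0976), for Csf1r and Mpeg1 without KO 1 (0.366 and 0.189) and without WT 1 (0.565 and 0.443), for Gata2 without KO 1 (0.375) and WT 2 (0.787), for Cd74 without WT 1 (0.294), for H2-Eb1 without WT 1 (0.429) and WT 2 (0.139), and for H2-Aa without KO 1 (0.150), WT 1 (0.611) and WT 2 (0.0941).

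Directions turned for genes with fold changes near 0 or with 1 library apart, 3 of which (Aimp1, Aarsd1 and Hspa5) belong to the neighbouring lists. With library totals alone the log2 fold change was -0.071 for Trib3, -0.031 for Iars, -0.048 for Aimp1 and -0.043 for Aarsd1. Aimp1 was at -0.014 by voom and at -0.013 with the replicate block. With 1 library left out the log2 fold changes ran from -0.38 to 0.57 in Trib3, -0.063 to 1.08 in Psph, -0.64 to 0.92 in Asns, -0.86 to 0.72 in Pycr1, -0.72 to 1.93 in Slc7a11, -0.82 to 0.006 in Slc7a1, -0.47 to 0.34 in Slc3a2, -0.021 to 0.10 in Iars, -0.52 to 0.14 in Vars, -0.27 to 0.046 in Dars, -0.15 to 0.65 in Mars2, -0.31 to 0.73 in Pars2, -0.023 to 0.28 in Wars2, -0.23 to 0.30 in Lars2, -0.27 to 0.24 in Aimp1, -0.11 to 0.15 in Aarsd1 and -0.26 to 1.07 in Hspa5. Without a change of sign, the size moved by over 1.5 times in further genes, among them Atf4 (0.24 to 0.84), Ddit3 (0.14 to 0.86), Phgdh (0.11 to 1.27), Mthfd1 (-0.73 to -0.33), Mthfd2 (-0.84 to -0.25), Aldh18a1 (-1.64 to -0.34), Slc7a5 (-0.90 to -0.20), Wars (-0.67 to -0.26) and Iars2 (-0.81 to -0.20). Depth limits Trib3, Chac1, Slc7a11 and Slc1a4, which had fewer than 100 counts in every library.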
